A study of Mus musculus with 6 samples.

Results

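The genes described here encode the enzymes of glycolysis, pyruvate dehydrogenase and the citric acid cycle, measured in ribosome-bound RNA of cortical pyramidal cells from mice that drank fluoxetine or vehicle. The list held 34 genes: 15 of glycolysis, 4 of the pyruvate dehydrogenase complex and 15 of the citric acid cycle. Each was matched by its exact symbol to probe sets annotated with a single gene, and the probe set of highest mean over the arrays stood for the gene. That left 31 of 34 genes measured, of 10830 genes in all, and all 31 passed the filter that the mean of at least 1 group reach an intensity of 50. Gpi1, Gapdh and Eno1 had no probe set annotated with that single symbol outside the array's controls and were not analysed here.

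The mice carried the Glt25d2 bacTRAP transgene (line DU9) and had been backcrossed for 3 to 5 generations from FVB onto C57BL/6. In bacTRAP mice a bacterial artificial chromosome drives a tagged ribosomal protein in chosen cells, here under the regulatory region of Glt25d2 (Colgalt2 today), and pulling down the tag (TRAP) recovers the messages on their ribosomes. Fluoxetine, a serotonin reuptake inhibitor, was given at 0.167 mg/ml in 1% saccharine for 15 to 18 days, and vehicle mice drank 1% saccharine alone over the same span. Each of the 6 arrays held RNA from a separate purification of cortex, 3 per treatment, and the labels do not say how many mice each pooled. The title, source and treatment fields give every sample one treatment while its description field gives the other, so the groups are called fluoxetine-titled and vehicle-titled, and reading the description in their place would turn the sign of each difference between them.

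Glycolysis splits glucose into pyruvate in the cytosol, and lactate dehydrogenase interconverts pyruvate and lactate. The pyruvate dehydrogenase complex turns pyruvate into acetyl-CoA inside mitochondria, and the citric acid cycle oxidises acetyl-CoA to feed electrons to the respiratory chain. Neurons depend on this route to restore their ion gradients after firing, and astrocytes are held to lean more on glycolysis and to export lactate.

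The defining gene of the labelled cells, Colgalt2, lay between 709 and 986 on the fluoxetine-titled arrays and between 828 and 918 on the vehicle-titled ones. Markers of other cell types were present too: all 11 listed astrocyte markers, 7 of 9 microglial and 7 of 7 interneuron markers passed the filter. The median intensity per array was between 23.0 and 23.4. Intensities of different probe sets share no scale, so levels are compared between arrays for 1 gene and never between genes. In RNA of this kind, fewer cells of a type and less RNA per cell cannot be told apart.

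Setting the fluoxetine titles against the vehicle titles addresses the effect of the drug on the recovered messages, among which were markers of other cell types. No enzyme gene of the 31 was called different, and the differences were small: the mean log2 difference (fluoxetine-titled minus vehicle-titled) ran from -0.16 for Pdhb, a pyruvate dehydrogenase subunit gene, to 0.14 for Sdhc, a membrane anchor of succinate dehydrogenase. Of the 31 genes, 13 had a positive and 18 a negative difference, where 47.8% of all genes had a positive one and 52.2% a negative one. The median was -0.035 for the 12 glycolysis genes, 0.0088 for the 4 pyruvate dehydrogenase genes and 0.0061 for the 15 citric acid cycle genes, beside -0.0068 over all genes. After quantile normalization the first and last of these medians were -0.018 and 0.041.

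The test was limma on log2 intensity over all 19073 probe sets kept, two-sided, with Benjamini-Hochberg adjustment. It called 0 of the 31 genes at an adjusted p of 0.05, and 0% of all probe sets. At an unadjusted p under 0.05 it also gave 0 of the 31, against 0.634% of probe sets. The smallest unadjusted p among the enzyme genes was 0.345, for Pdhb. With the replicate number as a block the count stayed at 0 by either p, against 0% of probe sets adjusted and 4.02% unadjusted, and the smallest unadjusted p was 0.186. These p-values do not show that the groups were equal, but the intervals bound the difference in measured intensity. Mdh1, Mdh2 and Aldoa reached 41547, 40254 and 38342, where array maxima ran from 48547 to 54034. Whether such brightness narrows the intervals was not tested. The 95% confidence interval lay within 1.5-fold in either direction for 28 of the 31 genes, against 66% of all genes, and within 2-fold for all 31. With the replicate block it lay within 1.5-fold for all 31, against 91.9% of all genes. The exceptions at 1.5-fold were Ogdh, Sdhc and Sdhd, which also varied most between replicate numbers.

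**Figure D1:**
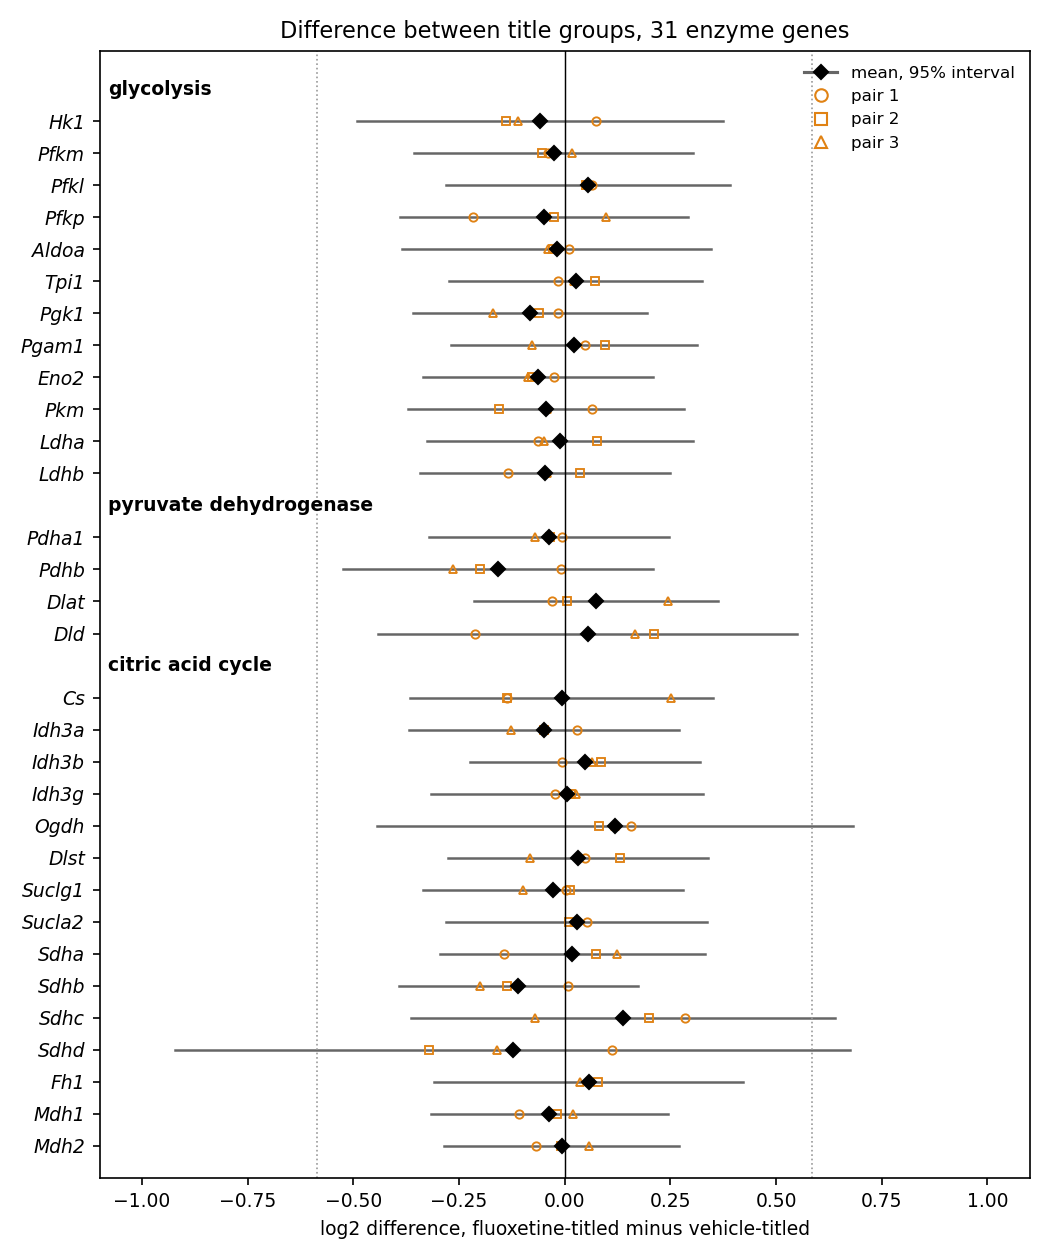
Mean log2 difference between fluoxetine-titled and vehicle-titled arrays for the 31 measured enzyme genes (black diamonds, n = 3 arrays per group), with the 95% confidence interval from limma (grey bars) and the difference within each pair of equal replicate number (orange symbols). Dotted lines mark 1.5-fold in either direction, and 28 of the 31 intervals lie between them, the bars of Ogdh, Sdhc and Sdhd reaching past.

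The title groups overlapped for 30 of the 31 genes. The exception was Pgk1, the X-linked phosphoglycerate kinase gene that makes the first ATP of glycolysis. Its intensities were 15238, 15181 and 14997 on fluoxetine-titled arrays 1, 2 and 3, and 15393, 15829 and 16853 on vehicle-titled arrays 1, 2 and 3. Every vehicle-titled value was above every fluoxetine-titled one, but by little, and vehicle array 3 stood highest. The log2 difference was -0.081 ± 0.12 (SE), with an interval from -0.36 to 0.20 and an adjusted p of 0.9999 in limma. Across all genes the groups failed to overlap for 3.61%, with the fluoxetine-titled values below for 1.98% and above for 1.63%. After quantile normalization Pgk1 no longer stood apart and Idh3b did. Pairing each fluoxetine-titled array with the vehicle-titled one of its number, 4 of the 31 genes were higher in all 3 fluoxetine-titled arrays (Pfkl, Ogdh, Sucla2 and Fh1) and 4 were lower in all 3 (Pgk1, Eno2, Pdha1 and Pdhb). The shares over all genes were 10.9% and 13.1%.

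In the upper part of glycolysis, where ATP is spent, the log2 differences lay between -0.058 and 0.056. Hexokinase 1, which traps glucose as its phosphate, had Hk1 intensities of 9735, 12335 and 11398 under fluoxetine titles and 9245, 13586 and 12302 under vehicle titles. Its low values were the 2 arrays numbered 1, and the groups overlapped (log2 difference -0.058 ± 0.18). The 3 phosphofructokinase genes encode the committed, ATP-inhibited step and differ in tissue range. Pfkl, the liver-type gene, had 6936, 8374 and 7387 against 6630, 8082 and 7130, higher in each pair by 0.05 to 0.07 and by 0.056 ± 0.14 on average. The log2 difference was -0.026 ± 0.14 for the muscle-type Pfkm and -0.048 ± 0.14 for the platelet-type Pfkp. Aldolase A, which splits fructose bisphosphate, had Aldoa intensities of 38342, 32936 and 29692 against 38089, 33550 and 30526. On this probe set the arrays were ordered by replicate number rather than by title, without a call between numbers (limma adjusted p = 0.168). The further probe sets of Aldoa were split. Numbers 2 and 3 minus number 1 were -0.36 and -0.53 (log2) in a further probe set and -0.034 and -0.19 in another. They were 0.14 and 0.049, and 0.16 and 0.10, in the rest. Tpi1, triosephosphate isomerase, had a difference of 0.026 ± 0.13.

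In the lower, ATP-yielding part, where Pgk1 stood apart, the other genes overlapped between the groups. The neuronal enolase gene Eno2 ranged from 18709 to 20367 over all 6 arrays, and its difference was -0.063 ± 0.12. The phosphoglycerate mutase gene Pgam1 had 0.022 ± 0.12 and the pyruvate kinase gene Pkm -0.044 ± 0.14. Lactate dehydrogenase is built from the A subunit, which favours lactate formation, and the B subunit, which favours its use. Ldha lay between 8304 and 9913 under fluoxetine titles and between 8589 and 9769 under vehicle titles, and its log2 difference was -0.011 ± 0.13. Ldhb lay between 28607 and 32637 and between 29434 and 31836, a difference of -0.046 ± 0.13. Neither subunit gene separated the groups.

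The 4 genes of the pyruvate dehydrogenase complex did not share a direction. Pdhb, the beta subunit of the decarboxylase, had intensities of 6501, 5937 and 4845 under fluoxetine titles and 6540, 6821 and 5817 under vehicle titles. The log2 differences of pairs 1, 2 and 3 were -0.0085, -0.20 and -0.26, and fluoxetine array 3 was the lowest, but the groups overlapped (-0.16 ± 0.16, interval from -0.52 to 0.21). Its partner, the X-linked alpha subunit gene Pdha1, had 6139, 6418 and 5805 against 6162, 6577 and 6093, a difference of -0.037 ± 0.12. Dlat, the acetyltransferase core, had 0.074 ± 0.12, with pair 3 at 0.25. Dld, the lipoamide dehydrogenase shared with the oxoglutarate dehydrogenase complex, had 2463, 4122 and 3247 against 2855, 3563 and 2894, lowest on the arrays numbered 1 and highest on those numbered 2 (0.054 ± 0.21).

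No citric acid cycle gene separated the title groups. Citrate synthase, the entry step, had Cs intensities of 17733, 17880 and 17575 under fluoxetine titles and 19478, 19653 and 14774 under vehicle titles. Vehicle array 3 stood below the rest, and the log2 difference moved from -0.0071 ± 0.15 with it to -0.14 without it. The isocitrate dehydrogenase subunit genes Idh3a, Idh3b and Idh3g, whose product is the NAD-dependent and regulated form of the enzyme, had differences of -0.049 ± 0.14, 0.049 ± 0.12 and 0.0061 ± 0.14. Succinyl-CoA ligase makes a nucleoside triphosphate directly: Suclg1, its shared alpha subunit gene, had -0.028 ± 0.13, and Sucla2, the ATP-forming beta subunit gene, 0.028 ± 0.13. The fumarase gene Fh1 had 0.057 ± 0.16. The malate dehydrogenase genes Mdh1 (cytosolic) and Mdh2 (mitochondrial) had -0.036 ± 0.12 and -0.0065 ± 0.12. Mdh1 reached 41547 on vehicle array 2, where the brightest probe set of the array had 52154, and how far such brightness compresses differences was not tested.

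Between replicate numbers, each shared by 1 array of either title, Sdhd was higher and Ogdh lower on the arrays numbered 1 than on the rest. The labels do not say what a number stands for. A moderated F test of the replicate number (limma, 2 degrees of freedom, treatment in the model) called 2 of the 31 genes at an adjusted p of 0.05, Sdhd and Ogdh, against 12.9% of all genes and 14.8% of probe sets. The members' share was thus not above the background. Both arrays numbered 1 lay above the other 4 for 7 of the 31 genes and below them for 6, where the shares over all genes were 24.4% and 19.9%. Over the 6 arrays the median SD of log2 intensity was 0.10 for the 31 genes, from 0.040 for Idh3b to 0.47 for Sdhd, beside 0.20 for all genes.

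**Figure D2:**
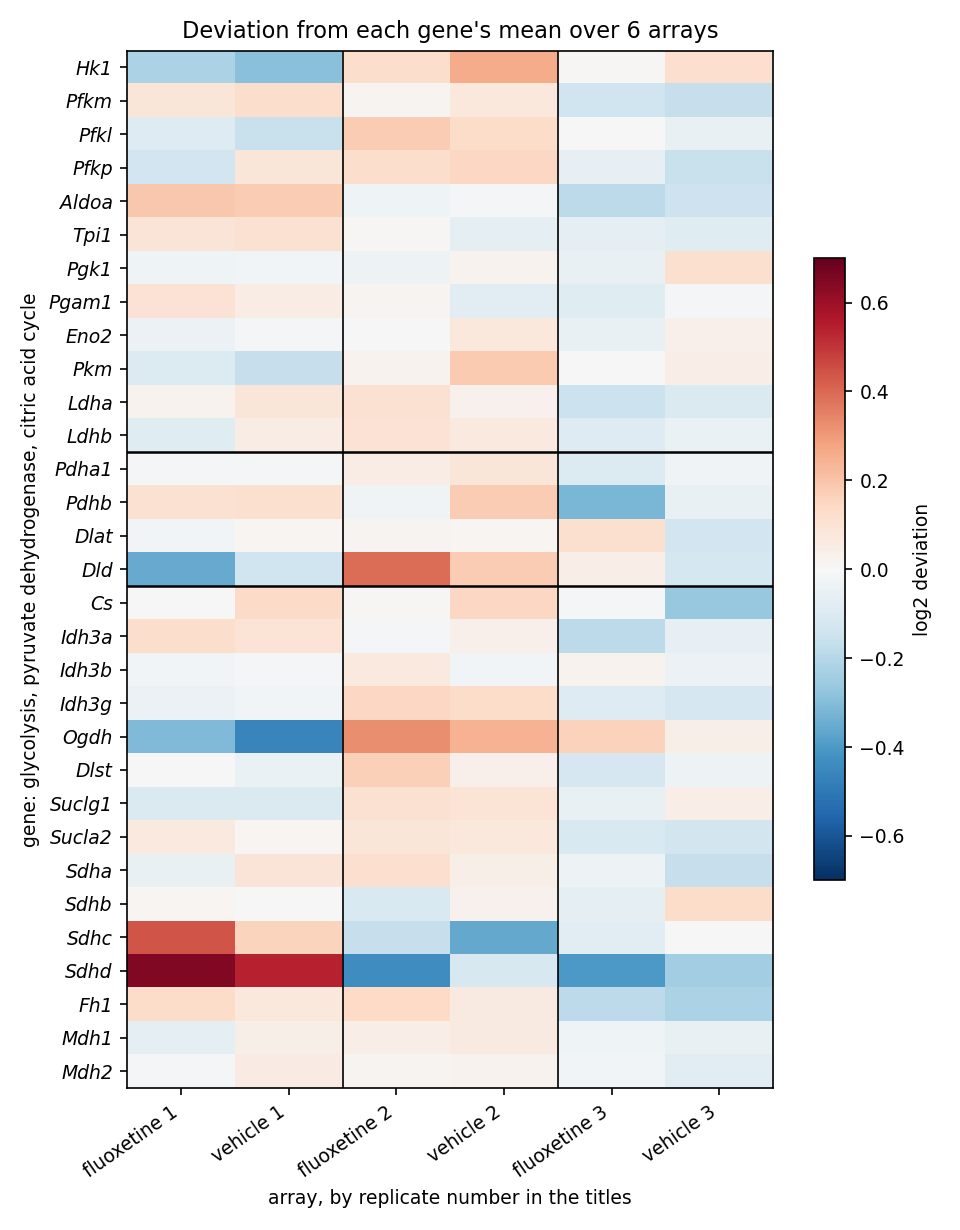
Log2 deviation of each enzyme gene from its own mean over the 6 arrays, with arrays ordered by replicate number and black lines between glycolysis, pyruvate dehydrogenase and citric acid cycle. Sdhd has the strongest colours, red on both arrays numbered 1 (0.65 and 0.54) and blue on the other 4, and Ogdh has the opposite colours (-0.31 and -0.46 on the arrays numbered 1).

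Succinate dehydrogenase, which is also complex II of the respiratory chain, has a soluble catalytic part (Sdha, the flavoprotein, and Sdhb, the iron-sulphur subunit) and a membrane anchor (Sdhc and Sdhd). The anchor gene Sdhd had intensities of 2635, 1246 and 1273 on fluoxetine-titled arrays 1, 2 and 3 and 2440, 1555 and 1422 on vehicle-titled arrays 1, 2 and 3. Both arrays numbered 1 were above all others, 1.82-fold over those numbered 2 and 1.88-fold over those numbered 3 (log2 -0.87 ± 0.15 and -0.91 ± 0.15 for numbers 2 and 3 minus number 1, limma adjusted p = 0.0186). Sdhc was placed likewise, with 3792, 2495 and 2649 against 3111, 2174 and 2782, and did not pass (adjusted p = 0.0755). Sdha ranged from 10504 to 12726 and Sdhb from 14916 to 17564, with adjusted p of 0.556 and 0.903 for the replicate number in limma. Between the title groups the log2 differences were 0.019 ± 0.13 for Sdha, -0.11 ± 0.12 for Sdhb, 0.14 ± 0.21 for Sdhc and -0.12 ± 0.34 for Sdhd. A second probe set of Sdhd leaned the same way, by -0.42 and -0.49, without passing in limma (adjusted p = 0.0718).

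In the oxoglutarate dehydrogenase complex, 1 probe set of Ogdh was placed the opposite way and the other subunits were not called. Ogdh, the decarboxylase and a control point of the cycle, had 2316, 3586 and 3205 under fluoxetine titles and 2079, 3390 and 2951 under vehicle titles. Both arrays numbered 1 were lowest, and numbers 2 and 3 were 1.59-fold and 1.40-fold higher (limma adjusted p = 0.0319). Its title difference was 0.12 ± 0.24, positive in each pair. Dlst, the succinyltransferase core of the same complex, lay between 4278 and 5212 and did not follow (adjusted p = 0.528 for the replicate number in limma; title difference 0.032 ± 0.13). The dimmer second probe set of Ogdh, between 97 and 140, did not follow either (adjusted p = 0.918 in limma). The call of Ogdh was lost when any one of fluoxetine arrays 1 and 2 and vehicle arrays 1 and 2 was left out. That of Sdhd was lost without fluoxetine array 1, where 0 of the 31 genes and 4.34% of probe sets passed. With an intensity trend in the variance model the count was 7, adding Hk1, Aldoa, Dld, Sdhc and Fh1, against 24.8% of probe sets.

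**Figure D3:**
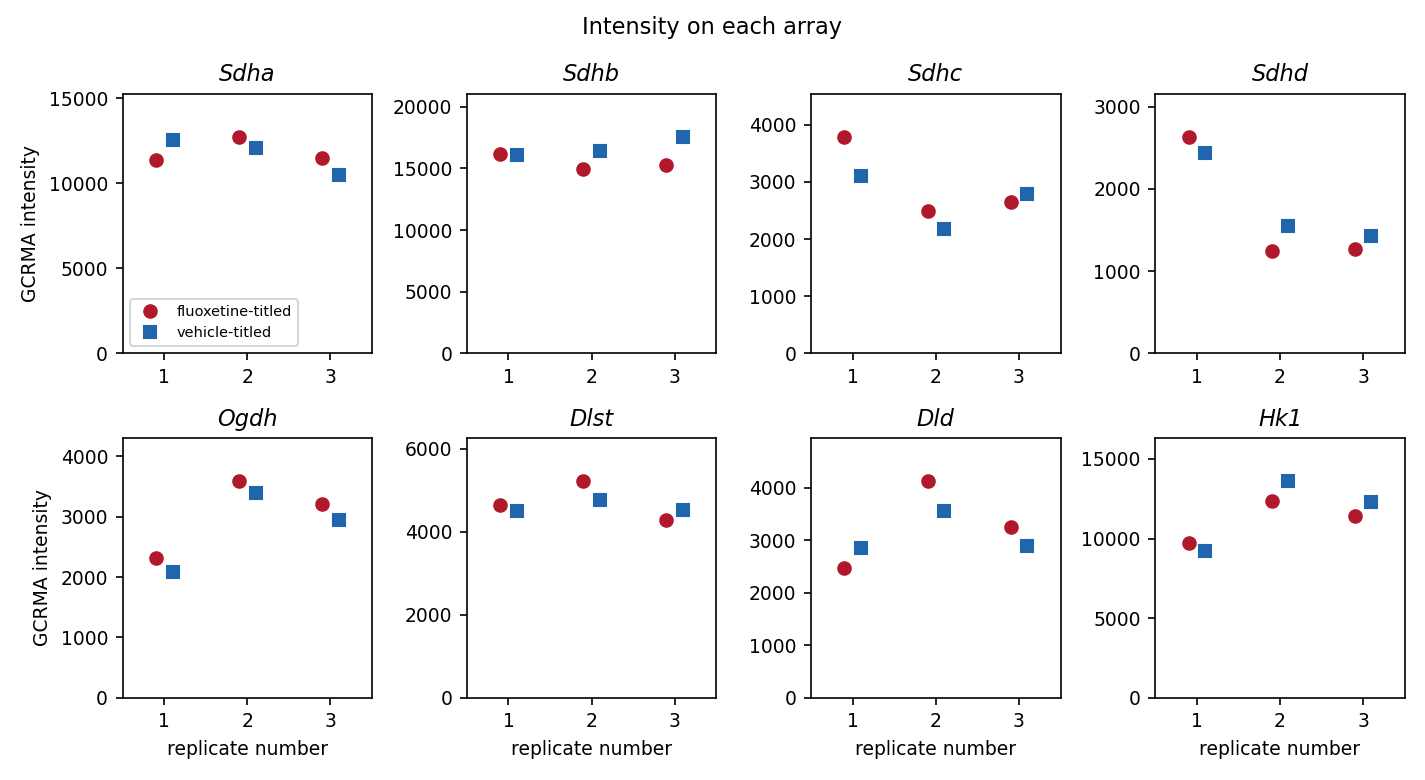
GCRMA intensity on each array for the 4 succinate dehydrogenase genes, the 3 genes of the oxoglutarate dehydrogenase complex and Hk1, against the replicate number (red circles fluoxetine-titled, blue squares vehicle-titled, axes from 0). Sdhd and Sdhc are highest and Ogdh, Dld and Hk1 lowest on the 2 arrays numbered 1, while for Sdha, Sdhb and Dlst those arrays overlap the others.

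Markers of the labelled neurons were mixed between replicate numbers. Both arrays numbered 1 were above the other 4 for Crym, Pcp4 and Tcerg1l and below them for Fezf2, and they overlapped the rest for Colgalt2 and Bcl11b. The summed intensity of the 6 measured layer 5 markers (of 7 listed) was 45272 and 49427 on the arrays numbered 1 and between 34880 and 44377 on the others, and Pcp4 alone made up 24332 to 37135 of it. Their part in the placement of Sdhd, Sdhc, Ogdh, Hk1 and Dld was not tested.

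The promoters of Sdhd and Ogdh are printed because these were the 2 genes called between replicate numbers, in opposite directions, and that of Dld because it had the widest spread over the arrays in the pyruvate dehydrogenase list. Each is a 300-base RefSeq window (GRCm38.p6), 250 bases before and 50 after the annotated start, read 5′ to 3′ along the gene. Sdhd lies at chr9:50603800-50604099 (minus strand), Ogdh at chr11:6291347-6291646 (plus strand, the farthest upstream of 6 windows listed) and Dld at chr12:31351422-31351721 (minus strand). Capitals mark matches, on either strand, to the motif letters named after the sequences.
Sdhd: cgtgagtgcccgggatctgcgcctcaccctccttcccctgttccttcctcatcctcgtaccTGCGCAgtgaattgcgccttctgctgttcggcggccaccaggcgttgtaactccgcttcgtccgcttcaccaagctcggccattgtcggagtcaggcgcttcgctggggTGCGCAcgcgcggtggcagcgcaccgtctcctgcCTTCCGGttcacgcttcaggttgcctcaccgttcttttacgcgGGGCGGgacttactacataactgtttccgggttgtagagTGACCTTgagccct
Ogdh: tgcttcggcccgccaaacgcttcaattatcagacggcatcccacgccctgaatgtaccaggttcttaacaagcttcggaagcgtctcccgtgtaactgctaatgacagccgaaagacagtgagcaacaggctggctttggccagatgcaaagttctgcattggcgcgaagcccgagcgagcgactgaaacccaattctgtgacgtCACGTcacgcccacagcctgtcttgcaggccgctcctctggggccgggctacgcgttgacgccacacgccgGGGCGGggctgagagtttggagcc
Dld: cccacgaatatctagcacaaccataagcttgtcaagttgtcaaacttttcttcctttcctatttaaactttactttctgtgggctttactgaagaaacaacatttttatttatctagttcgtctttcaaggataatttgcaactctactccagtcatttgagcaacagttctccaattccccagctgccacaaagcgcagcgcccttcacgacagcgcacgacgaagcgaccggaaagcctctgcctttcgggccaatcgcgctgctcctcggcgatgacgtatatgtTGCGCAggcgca

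The motifs searched on both strands were the E-box CACGTG, the hypoxia response core ACGTG (which the E-box contains), the ERR site AAGGTCA, the NRF1 core TGCGCA, the ETS site CCGGAAG, the GC box GGGCGG and the TATA box TATAAA. The Sdhd window held the NRF1 core at 2 places, starting at bases -189 and -80, and an ETS site, a GC box and an ERR site. The Ogdh window held 1 hypoxia response core and 1 GC box, and the Dld window 1 NRF1 core. A window was found for 29 of the 31 measured genes, and none was listed for Idh3a or Sdhc. The GC box was in 62.1% of these 29 windows and 35.9% of the windows of 27025 genes, the hypoxia response core in 9 of the 29 against 19.6%, and the NRF1 core in 20.7% and 8.1%. The ETS site was in 17.2% and 9.1%, the ERR site in 6.9% and 4.7%, the E-box in 6.9% and 7.2%, and the TATA box in 3.4% (the Eno2 window) and 14.2%. The 29 windows had a median GC content of 60.3% against 52.7%, which by itself favours GC-rich letters, and a match is a description of the sequence.

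Other genes of the same metabolism, 62 measured of 80 listed, likewise held no call between the treatments. In limma 0 of the 62 passed by adjusted p, with or without the replicate block, against 0% of probe sets. By unadjusted p under 0.05 the count was also 0, where 0.634% of the probe sets passed. The groups overlapped for each of the 62, while 3.61% of all genes had groups apart. The median log2 difference of the 62 was 0.043, with 38 positive and 24 negative. Over all genes it was -0.0068, with 47.8% positive. For the 31 enzyme genes it was -0.011, close to that over all genes, with 13 positive and 18 negative. By set, the medians were 0.065 for 9 further glycolysis isoenzymes, 0.054 for 12 regulators of glycolysis and pyruvate dehydrogenase, 0.040 for 12 further citric acid cycle genes, 0.036 for 8 glucose, lactate and pyruvate transporters, -0.061 for 7 shuttle genes that carry cytosolic reducing power to mitochondria, and 0.043 for 14 pentose phosphate and glycogen genes.

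Of the 12 genes with the widest difference, 2 per set, some went 1 way in all 3 pairs and the rest did not. Those that did were Pdk3, Sdhaf4, Aco1, Slc2a6, Gpd1l, Gpd2 and Pgd. The 12 were picked by the mean over the same pairs, so this tally does not stand apart from the choice. Fluoxetine-titled values were above in every pair for 14 of the 62 and below for 8, beside 10.9% and 13.1% of all genes. Eno4, an enolase gene, had 198.5, 130.6 and 76.0 under fluoxetine titles and 154.5, 159.3 and 187.3 under vehicle titles, lowest on fluoxetine array 3 (-0.41 ± 0.33). Pdk4, a kinase that switches pyruvate dehydrogenase off, had 0.31 ± 0.34, and its pairs were 0.51, -0.36 and 0.77. The kinase gene Pdk3 had -0.18 ± 0.17 and was lower in each pair. The lactate and pyruvate carrier gene Slc16a1, prominent in glia and vessels, had 0.22 ± 0.31, with 0.64 in pair 3. The difference was 0.18 ± 0.30 for hexokinase 2 (Hk2), 0.18 ± 0.18 for the cytosolic aconitase gene Aco1 and -0.20 ± 0.22 for Sdhaf4, an assembly factor of succinate dehydrogenase. It was 0.12 ± 0.14 for the glucose transporter gene Slc2a6, -0.17 ± 0.15 for Gpd1l and 0.091 ± 0.23 for Gpd2 of the glycerol phosphate shuttle, 0.19 ± 0.20 for Pgd of the pentose phosphate pathway and -0.18 ± 0.15 for the phosphoglucomutase gene Pgm2.

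Between replicate numbers 7 of these 62 passed the F test in limma, against 12.9% of all genes and 14.8% of probe sets, so their share was not above the background. They are named here after their values were seen. Sdhaf3, an assembly factor of succinate dehydrogenase, had 855, 307 and 498 under fluoxetine titles and 828, 380 and 541 under vehicle titles, highest on the arrays numbered 1 as for Sdhd (adjusted p = 0.00862). Slc2a1, the main glucose transporter gene of brain vessels and astrocytes, and Idh2, the mitochondrial NADP-dependent isocitrate dehydrogenase gene, were also highest there (limma adjusted p = 0.0479 and 0.0247). The brain glycogen phosphorylase gene Pygb, Hk2 and Gpd2 were lowest there, with numbers 2 and 3 above number 1 by 2.01-fold and 1.51-fold for Pygb (limma adjusted p = 0.0191), 1.84-fold and 1.42-fold for Hk2 (0.0315) and 1.53-fold and 1.38-fold for Gpd2 (0.0372). Pdp1, the phosphatase that switches pyruvate dehydrogenase on, was lowest on the arrays numbered 3 (limma adjusted p = 0.0458).

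Across arrays the enzyme lists moved little beside the astrocyte and microglial markers. The median deviation from each gene's mean over the 6 arrays spanned 0.13 for glycolysis, 0.22 for pyruvate dehydrogenase and 0.14 for the citric acid cycle, against 0.99 for astrocyte and 1.40 for microglial markers. That span was 0.20 for excitatory neuron markers, 0.37 for layer 5 markers and 0.042 over all genes. All 11 astrocyte markers had a positive title difference (median 0.28), with pair medians of -0.055, -0.011 and 0.83. Their summed intensity was between 13833 and 19758 on the fluoxetine-titled arrays and between 10036 and 17720 on the vehicle-titled ones, lowest on vehicle array 3. On that array the glycolysis median was -0.050 and that of the citric acid cycle -0.058, values close to those on fluoxetine array 3 (-0.061 and -0.070). The pyruvate dehydrogenase median was -0.087 on vehicle array 3, its lowest of the 6 arrays, and -0.024 on fluoxetine array 3. The aldolase typical of astrocytes, Aldoc, was lowest on vehicle array 3 at 9511, the other arrays lying between 12973 and 17115, while Aldoa had 30526 there and 29692 on fluoxetine array 3. Without pair 3 the medians of the 3 enzyme lists were -0.035, -0.016 and -0.0038, and 0 of the 31 genes passed. All 5 vessel markers measured (of 8 listed) had a positive title difference, with a median of 0.40. Their summed intensity was between 1736 and 1995 under fluoxetine titles and between 1230 and 1605 under vehicle titles. These sums did not overlap, but they add probe sets that share no scale. Gene by gene, the groups were apart for 2 of the 5 (Abcb1a and Acta2), against 3.61% of all genes. In limma 0 of the 5 passed by adjusted p. All 6 layer 5 markers had a negative title difference (median -0.14), with pair medians of 0.062, -0.16 and -0.29. Of these 6, 2 were lower in all 3 pairs, where the share over all genes was 13.1%. The part of these markers in the differences of the enzyme genes was not tested.

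**Figure D4:**
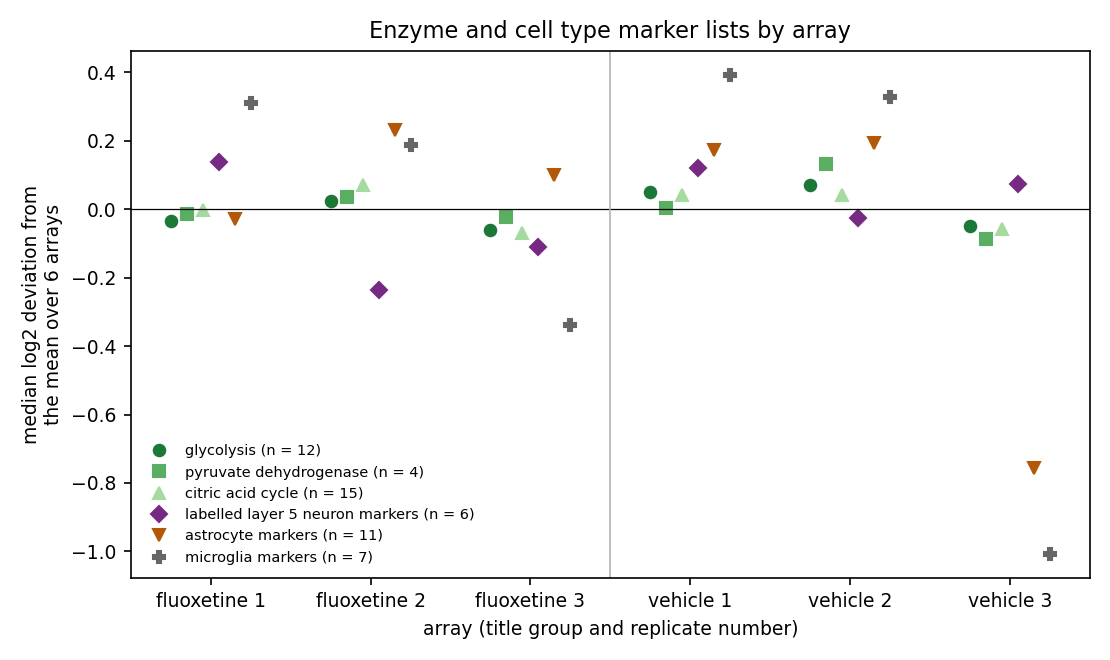
Median log2 deviation of each gene list from the genes' means over 6 arrays, by array (green symbols enzyme lists, other symbols cell type marker lists, n = genes measured). The 3 enzyme lists stay within 0.14 of 0 on every array, while astrocyte and microglial markers fall to -0.76 and -1.01 on vehicle array 3.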

How the data were processed

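Per the labels' protocols, 15 ng of TRAP RNA per sample was amplified in 2 cycles, labelled with biotin and hybridised to Affymetrix mouse arrays. The authors deposited 1 GCRMA intensity per probe set and array on a linear scale, per the submitters' processing notes. The GCRMA version is not given in the sources used here. GCRMA models background from probe sequence and normalises between arrays, so shifts common to all genes are removed. The design text advises a filter at 50 and, for another transgene (S100a10), a published probe set list, which is not used here.

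Of 45101 probe sets, 64 controls were left out and 19073 kept where the mean of either title group reached 50. The platform annotation gave 34945 probe sets 1 symbol, 932 several and 9160 none. Log2 intensities were fitted with limma 3.58.1 (R 4.3.3), code that was tested on simulated data. Groups and replicate numbers came from the titles. As a check of the pairing, the deviations from the group mean correlated at 0.74, 0.60 and 0.50 between the 2 arrays of numbers 1, 2 and 3. Between arrays of unequal number the correlations ran from -0.59 to 0.26, and were positive only between numbers 2 and 3 (0.11 and 0.26). The numbers in the titles were taken to pair the samples, though no label says what they stand for. The unblocked fit is reported, with the replicate block beside it for the calls and intervals. Variation between replicate numbers stays in the error of the unblocked fit. The median SE over the 31 genes was 0.13 without the block and 0.10 with it. The number of arrays limits the precision. In the unblocked fit, p-values set a difference against the spread between purifications of the same title. With the block, and in the replicate number test, the error is the spread left after title and number are fitted. The enzyme genes, the other gene lists and the naming rule (groups apart, pairs 1 way with at least 0.15, the 3 strongest replicate effects per group, the 2 widest differences per further list) were chosen with earlier results of these data known. Alternatives changed the filter, normalization, low values, probe set choice, variance model and arrays used.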

Additional observations from a re-analysis of the deposited data

How the results depend on the processing

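No alternative called an enzyme gene or a further pathway gene between the treatments: the count was 0 in all 17, including the replicate block. Over all probe sets, or all genes where probe sets were averaged, each of the 17 also called 0. The replicate number test already holds that number and the overlap counts use no model, so the block could not change either. The sign of the difference stayed for 6 of the 31 genes (Pgk1, Eno2, Ldhb, Pdhb, Idh3b and Sdhb) and turned in at least 1 alternative for 25, and the widest difference in any was -0.48, for Sdhd without fluoxetine array 1. Replicate number calls among the 31 genes were 2 in the reported fit (14.8% of probe sets) and 0 without the filter on low values (0%). There was 1 with probe sets averaged per gene (15.1% of genes), and 7 with the intensity trend (24.8% of probe sets). Leaving out any single array gave 0 to 2 (4.34% to 18.7% of probe sets). Enzyme genes whose groups did not overlap numbered 1 as reported (3.61% of all genes) and 2 with probe sets averaged (3.33%). They numbered 1 to 5 on leaving out a single array (7.78% to 16.3% of all genes). Without pairs 1, 2 and 3 they numbered 7, 3 and 5 (28.6%, 15% and 18.2% of all genes), since fewer arrays separate more easily. The glycolysis median was -0.018 after quantile normalization, -0.0105 and -0.017 without pairs 1 and 2, and from -0.068 to 0.013 on leaving out a single array. That of pyruvate dehydrogenase was -0.072 with probe sets averaged, -0.031 without pair 2 and from -0.099 to 0.048 on leaving out a single array. That of the citric acid cycle was 0.041 after quantile normalization, -0.010 with probe sets averaged, 0.024, -0.0056 and -0.0038 without pairs 1, 2 and 3, and from -0.046 to 0.047 on leaving out a single array. The cause of these shifts was not tested.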

Other observations

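Of the 31 enzyme genes, 21 had more than 1 probe set kept, 64 in all, and for 11 of them the probe sets differed in the sign of the title difference. A second probe set of Pfkp was the only 1 of the 64 at an unadjusted p under 0.05, and only with the replicate block, against 4.02% of all probe sets. Its adjusted p in limma was 0.993. Its intensities were 215, 177 and 176 under fluoxetine titles and 180, 134 and 149 under vehicle titles. The probe set of Pfkp used above, of higher mean, had a log2 difference of -0.048. Each of the 4 probe sets of Ldhb and the 3 of Pgk1 and of Idh3a had a negative difference, from -0.046 to -0.15, -0.081 to -0.17 and -0.049 to -0.22, and 0 of them passed limma's test at an unadjusted p under 0.05. A second probe set of Pdhb, between 123 and 202, passed the replicate number test (limma adjusted p = 0.0442), with the arrays numbered 3 lowest, while the probe set used above did not (0.229).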
